A study of Mus musculus with 12 samples.

Results

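The genes described here are 45 interferon-stimulated genes, given as a list of gene names. Probe sets were taken whose platform annotation gives exactly 1 gene symbol, old or new, from that list, and the probe set with the highest mean over the 12 arrays stood for each gene. Of the 45 genes, 41 had such a probe set, out of 19937 genes in the whole table, and 37 were bright enough to be tested among 14217 genes. Isg15, Ifi44, Gbp2 and Igtp, which lack one, are not analysed here. Dhx58, Mx1, Mx2 and Cmpk2 were too dim for the tests, since fewer than 3 of the 12 arrays had them above the array's 40th percentile.

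The study profiled osteoblasts and endothelial cells of mouse long bones with and without a breast cancer growing in the bone. Each sample was the RNA of 5000 sorted cells, amplified and hybridised to an Affymetrix Mouse Gene 1.0 ST array, and the deposited values are log2 intensities. There were 4 groups of 3 arrays, called biological replicates in the labels, with no word on whether osteoblasts and endothelial cells were sorted from the same mice, and all came from female C57BL/6 mice of unstated age. The tumor-bearing groups came from mice that had received 500000 EO771 cells, a mammary cancer line, into the heart about 2 weeks before, and the tumor-free groups from mice without tumor cells. Osteoblasts were gated as CD51-positive cells lacking GFP, TR119, CD45, SCA1 and CD31, and endothelial cells as SCA1- and CD31-positive cells lacking GFP, TR119 and CD45. The model follows an injected line in place of a spontaneous tumor, and each array reads a sorted population, so that fewer expressing cells and less RNA per cell cannot be told apart.

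The gates can be checked on marker genes. The median of 6 endothelial markers lay between 10.56 and 10.80 in the 6 endothelial arrays and between 5.45 and 5.65 in the 6 osteoblast arrays. The median of the 4 measured osteoblast markers lay between 10.30 and 10.98 in osteoblast arrays and between 6.76 and 6.97 in endothelial arrays. Osteoblast arrays also carried chondrocyte markers, with medians from 7.81 to 9.94 against 6.67 to 6.91 in endothelial arrays. The median over all probe sets was between 5.95 and 6.04 in every array. Pairwise correlations within a group were lowest in tumor-free osteoblasts, from 0.892 to 0.905, and highest in tumor-free endothelial cells, from 0.954 to 0.963.

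Interferons are secreted proteins that cells release when they sense foreign or misplaced nucleic acid, and that activated lymphocytes release as interferon gamma. Type I interferons act through Ifnar1 and Ifnar2 and the kinases Jak1 and Tyk2 to activate a complex that includes Stat2 and Irf9 and binds the interferon-stimulated response element of target promoters, while interferon gamma acts through Ifngr1 and Ifngr2 on promoters with gamma-activated sites. The target genes encode sensors and transcription factors that amplify the signal, chemokines that draw T cells, and proteins that block steps of viral growth. Bone cells and vessel cells carry interferon receptors, and interferons are known to restrain bone resorption.

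The core letters of the response element were looked for in the promoters of the listed genes, because this is the element that the list's genes are known for. RefSeq promoter windows of build GRCm38.p6, of 300 bases that lie mostly before a gene's start, were matched by symbol for 35 of the 45 genes. The motif, GAAA followed by any 2 bases and GAAA again, searched on both strands, was found in 19 of the 35 genes (54.3%) against 3.99% of 27025 genes with a window. The motif TTCNNNGAA of gamma-activated sites, searched in the same way, was found in 10 of the 35 (28.6%) against 9.55% of all genes. The motifs were searched separately, so that their matches may share bases. A match describes letters in the window and not a site in use. The window of Cxcl10, the listed gene with the smallest p in the osteoblast comparison below, is shown whole on the strand of the gene. Its 1 match of the response element motif begins at base 38 and is in capitals, and TTCNNNGAA was not found in it.
Cxcl10 window (chr5:92348840-92349139, minus strand): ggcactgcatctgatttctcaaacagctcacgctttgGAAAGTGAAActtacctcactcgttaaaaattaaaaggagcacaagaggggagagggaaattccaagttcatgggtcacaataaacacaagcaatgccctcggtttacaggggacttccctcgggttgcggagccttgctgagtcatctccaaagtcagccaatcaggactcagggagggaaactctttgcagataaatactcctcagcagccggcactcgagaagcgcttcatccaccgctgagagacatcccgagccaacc

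Matches of 12 of the listed genes are shown with up to 10 bases on each side, so that the spacing and flanks can be compared between members of different roles. They are written on the strand that reads GAAA, with the build's coordinates and strand, and capitals mark the response element motif, or its overlapping matches merged.
Cxcl10 (chr5:92349083-92349112, minus strand): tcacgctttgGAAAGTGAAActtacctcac
Ddx58 (chr4:40239804-40239833, plus strand): ctggccatagGAAATCGAAActgcctcagg
Ifih1 (chr2:62646206-62646233, minus strand): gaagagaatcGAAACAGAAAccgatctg
Stat2 (chr10:128270266-128270295, minus strand): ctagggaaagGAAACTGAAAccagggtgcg
Oas1a (chr5:120907526-120907555, minus strand): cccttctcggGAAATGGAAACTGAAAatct
Ifit1 (chr19:34640775-34640804, minus strand): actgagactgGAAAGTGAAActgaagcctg
Ifit3 (chr19:34583363-34583392, minus strand): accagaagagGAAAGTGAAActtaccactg
Rsad2 (chr12:26456553-26456582, plus strand): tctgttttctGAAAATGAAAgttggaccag
Bst2 (chr8:71537583-71537612, minus strand): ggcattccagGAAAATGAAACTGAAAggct
Ddx60 (chr8:61928024-61928053, plus strand): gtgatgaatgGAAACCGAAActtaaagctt
Gbp3 (chr3:142559989-142560018, minus strand): ctggGAAATAGAAACTGAAActgtgtcctg
Irgm1 (chr11:48871431-48871460, minus strand): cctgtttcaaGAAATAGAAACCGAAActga
The matches shown of Cxcl10, Ifit1 and Ifit3 share the same 10 capital letters, and in Oas1a, Bst2, Gbp3 and Irgm1 a pair of matches overlaps. Ifit1, Ifit3 and Ddx60 each hold a further, separate match that is not shown. In Ifit1 and Ifit3 the further match has other letters between the GAAA runs than the match shown. The matches of Ddx58 and Ifih1 begin at bases 253 and 283 of their windows, which lie past the genes' starts. The windows of Irf7 and Cxcl9 held neither motif.

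The listed genes stood at different levels in the 2 cell types. The median log2 value over the 37 tested genes was 7.03, 6.53 and 6.90 in the 3 tumor-free osteoblast arrays and 7.24, 7.19 and 8.01 in the 3 tumor-bearing ones. In endothelial cells it was 7.71, 7.73 and 7.44 in tumor-free and 7.69, 7.97 and 8.09 in tumor-bearing mice. All 3 tumor-bearing osteoblast arrays were above the 3 tumor-free ones, replicate 3 of the tumor-bearing osteoblasts stood apart upward, and all other osteoblast arrays lay below every endothelial array. The median over all genes tested lay between 6.65 and 6.70 in the 12 arrays.

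**Figure D1:**
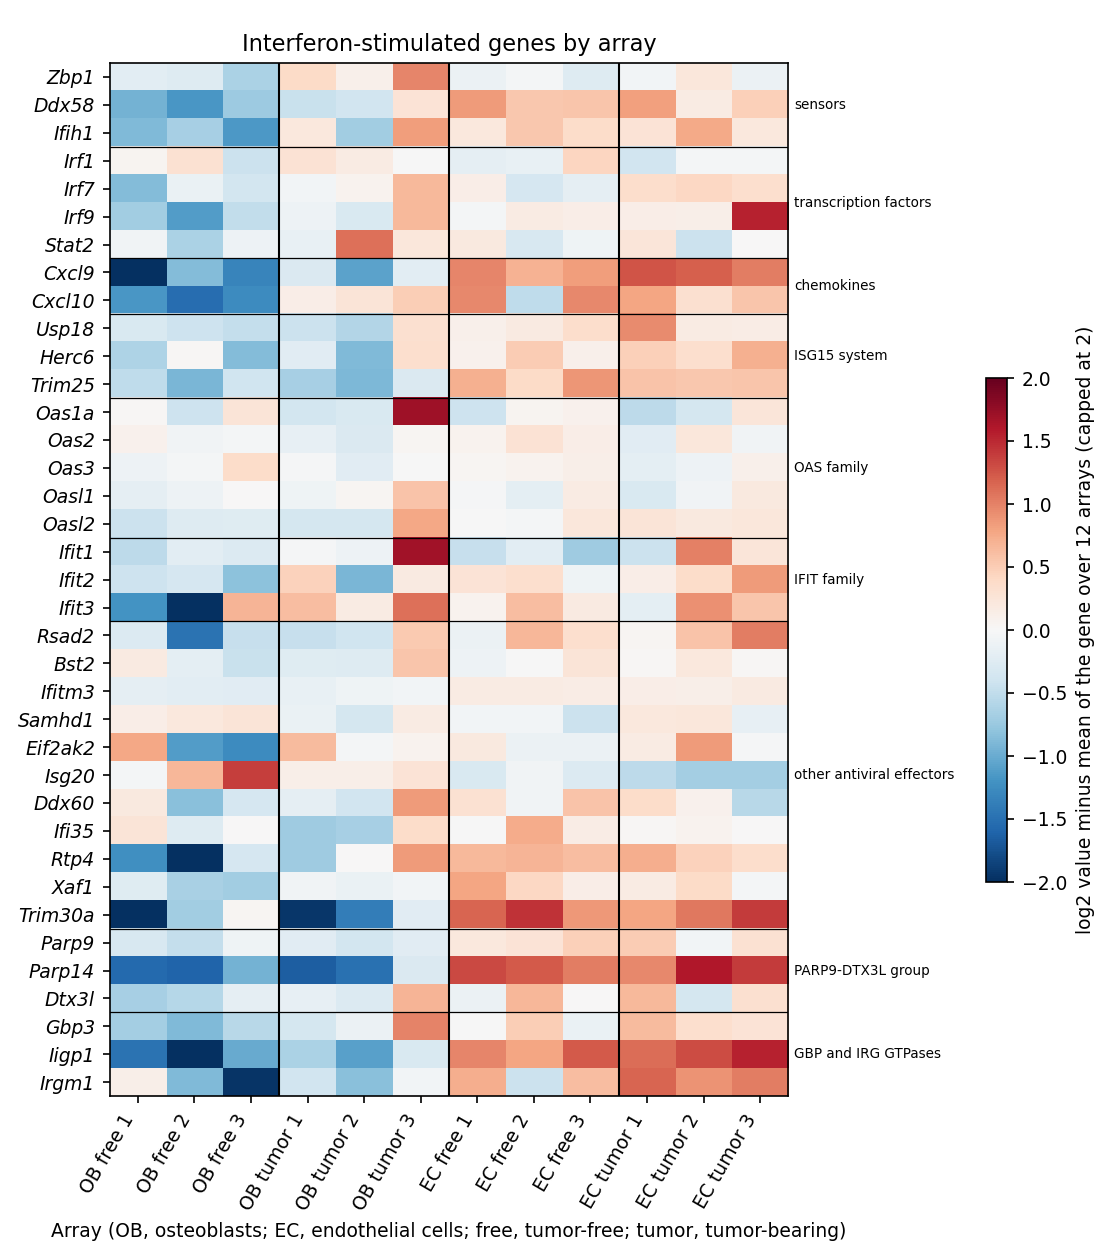
Log2 value of each of the 37 tested interferon-stimulated genes in each of the 12 arrays, minus the mean of that gene over all arrays, on a color scale capped at 2. Columns are arrays by group, and rows are genes by role. Replicate 3 of the tumor-bearing osteoblasts is redder than the other osteoblast arrays. Iigp1, Parp14 and Cxcl9 are blue in osteoblasts and red in endothelial cells, as is Trim30a except in tumor-free osteoblast replicate 3, which lies near its mean.

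The first comparison asked how osteoblasts of tumor-bearing mice differ from those of tumor-free mice. In osteoblasts, 30 of the 37 genes had a positive log2 difference, tumor-bearing minus tumor-free, against 46.7% of all genes tested. The median difference was 0.43 against -0.02 over all genes, and the range was -0.50 (Isg20) to 1.95 (Ifit3). With limma, 0 of the 37 passed an adjusted p of 0.05, where 0.0563% of all genes did (0.0352% higher and 0.0211% lower). At an unadjusted limma p under 0.05, 12 were higher and 0 lower, against 5.8% and 3.97% of all genes. The arrays of the groups did not overlap in 9 genes that were higher and 0 that were lower, against 6.18% and 8.36% of all genes.

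Markers of red cells moved with tumor status in these libraries. The median of the 3 measured erythroid markers of 5 lay between 6.25 and 6.68 in tumor-bearing and between 7.12 and 7.33 in tumor-free osteoblasts, with summed log2 values of 17.8 to 19.7 and 20.6 to 22.0, and the groups did not overlap. In endothelial cells the sums were 18.2 to 18.6 and 19.0 to 20.1, again without overlap. Of the 3, Alas2, a heme synthesis gene, was lower in every tumor-bearing array of each cell type than in every tumor-free array of that type. Of all genes tested, 8.36% were lower without overlap in osteoblasts and 4.87% in endothelial cells. The median of 6 neutrophil markers lay between 7.05 and 8.38 in tumor-bearing and between 7.41 and 10.84 in tumor-free osteoblasts, and between 7.05 and 7.86 and between 6.62 and 9.17 in endothelial cells, where the groups overlapped. Their part in the values of the listed genes was not tested.

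The chemokine gene Cxcl10, whose product binds Cxcr3 and attracts T cells, had the smallest p. Its log2 values were 9.03, 9.16 and 9.39 in tumor-bearing and 7.73, 7.38 and 7.64 in tumor-free osteoblasts. The groups did not overlap, and each tumor-bearing array exceeded the highest tumor-free array by more than the whole range of either group. The means were 9.20 ± 0.18 and 7.59 ± 0.18 (SD, n = 3), a 3.05-fold difference of 1.61 on the log2 scale (SE 0.34, limma adjusted p = 0.178). In endothelial cells Cxcl10 was at 9.69, 9.23 and 9.46 in tumor-bearing and 9.87, 8.39 and 9.86 in tumor-free mice, so that the tumor-bearing osteoblasts came near to the endothelial level. Without endothelial tumor-free replicate 2, the array at 8.39, which enters the osteoblast test only through the shared spread, the same osteoblast difference had a limma adjusted p of 0.0129. This was the only 1 of 22 alternative settings in which Cxcl10 passed, and its highest limma adjusted p among them was 0.337.

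Its relative Cxcl9, a ligand of the same receptor that is induced mainly by interferon gamma, read 8.59, 7.80 and 8.66 in tumor-bearing and 6.65, 8.0 and 7.56 in tumor-free osteoblasts. Here the groups overlapped, since tumor-bearing replicate 2 lay below tumor-free replicate 2. The difference was 0.95 (SE 0.32, limma adjusted p = 0.365).

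The 3 tested sensors all had positive differences. Zbp1, a sensor of Z-form nucleic acid, was at 7.48, 7.19 and 8.06 in tumor-bearing and 6.89, 6.83 and 6.46 in tumor-free osteoblasts (difference 0.85, SE 0.21, limma adjusted p = 0.238). Ddx58, which encodes the RNA sensor RIG-I, was at 7.52, 7.59 and 8.24 against 7.03, 6.80 and 7.24 (0.76, SE 0.22, limma adjusted p = 0.313). In both genes all tumor-bearing arrays lay above all tumor-free arrays, with replicate 3 the highest. Ifih1, which encodes the RNA sensor MDA5, was at 8.48, 7.58 and 9.10 against 7.39, 7.60 and 7.12 (1.02, SE 0.32, limma adjusted p = 0.351). Its groups overlapped by 1 array, tumor-bearing replicate 2.

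Of the 4 transcription factors, Irf7, which amplifies type I interferon production, read 6.44, 6.57 and 7.15 in tumor-bearing and 5.64, 6.37 and 6.13 in tumor-free osteoblasts (0.67, SE 0.22, limma adjusted p = 0.361). The groups did not overlap, although tumor-bearing replicate 1 exceeded tumor-free replicate 2 by little. Irf9, the DNA-binding subunit of the complex that type I interferon activates, had a difference of 0.85, and its partner Stat2 of 0.66. Irf9 also had groups that did not overlap, whereas the groups of Stat2 did. Irf1, an early target of interferon gamma, had a difference of 0.18, and its second probe set of 0.09.

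**Figure D2:**
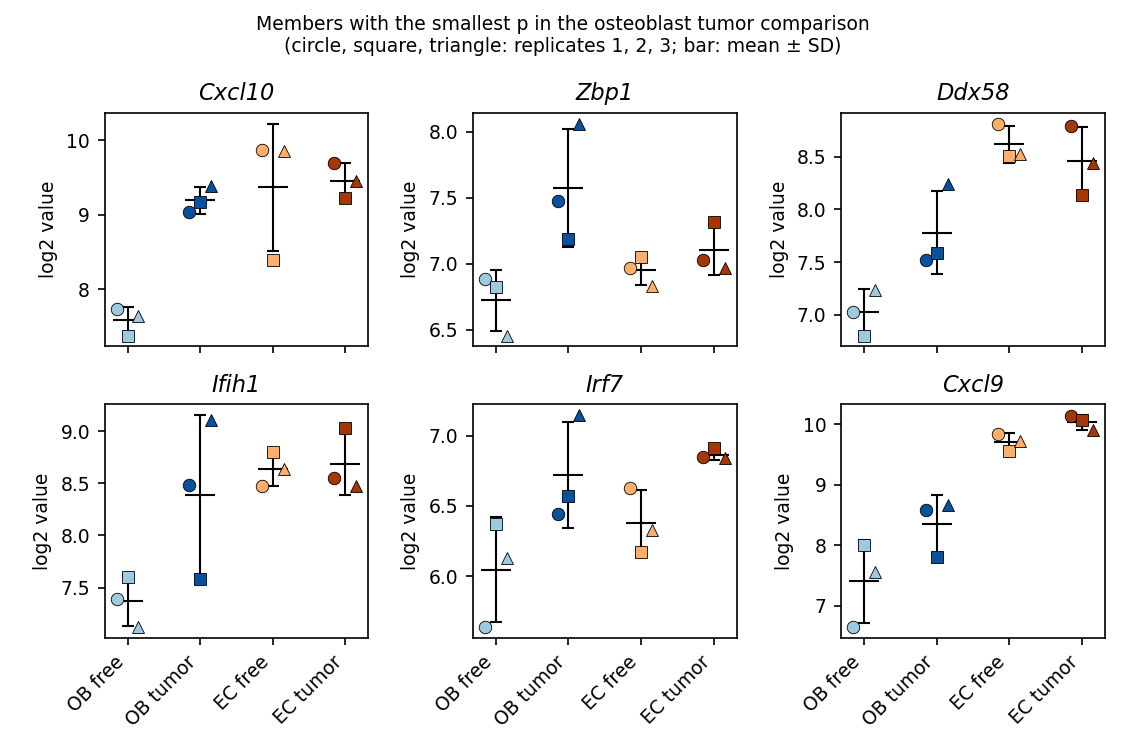
Log2 values of Cxcl10, Zbp1, Ddx58, Ifih1, Irf7 and Cxcl9, the listed genes with the smallest p in the osteoblast tumor comparison, by group. Points are arrays, with circles, squares and triangles for replicates 1, 2 and 3, and bars are the mean ± SD (n = 3). The Cxcl10 panel shows the tumor-bearing osteoblasts, from 9.03 to 9.39, apart from the tumor-free ones, from 7.38 to 7.73.

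The effector families were less even. Among the IFIT genes, whose products bind viral RNA, the differences were 0.85 (Ifit1), 0.43 (Ifit2) and 1.95 (Ifit3). The value of Ifit3 rests on a wide spread, since the tumor-free osteoblasts read 7.99, 5.73 and 9.88 and the tumor-bearing ones 9.81, 9.35 and 10.29 (SE 0.80, limma adjusted p = 0.474). Tumor-free replicate 3 of Ifit3 lay above 2 of the 3 tumor-bearing arrays. Of the 5 oligoadenylate synthetase family genes, whose catalytic members make the activator of RNase L, 3 were positive, and the values ran from -0.16 (Oas3) to 0.38 (Oas1a) with 0 at an unadjusted limma p under 0.05. The ISG15 system gave 0.17 for Usp18, the protease that removes ISG15, 0.23 for Herc6, a mouse ISG15 ligase, and -0.01 for Trim25, a ubiquitin ligase that acts on RIG-I.

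Among 11 other antiviral effectors, 7 were positive and 2 were higher at an unadjusted limma p under 0.05. Rtp4, an interferon-induced transporter of receptors, read 7.40, 8.12 and 8.96 in tumor-bearing and 6.89, 6.05 and 7.77 in tumor-free osteoblasts (1.26, SE 0.43, limma adjusted p = 0.367). Xaf1, a binding partner of the apoptosis inhibitor XIAP, read 7.24, 7.19 and 7.25 against 7.07, 6.67 and 6.61 (0.45, SE 0.18, limma adjusted p = 0.480). The Xaf1 groups did not overlap, and the 3 tumor-bearing arrays were nearly equal, whereas in Rtp4 replicate 3 was the highest array and tumor-free replicate 3 lay above tumor-bearing replicate 1. The 4 negative values were those of Isg20, an exonuclease (-0.50), Ifi35 (-0.33), Samhd1, which degrades deoxynucleotides (-0.31), and Trim30a (-0.12). The remaining differences were 0.63 for Rsad2, the antiviral enzyme viperin, 0.75 for Eif2ak2, the RNA-activated kinase PKR, 0.42 for the helicase gene Ddx60, 0.17 for Bst2, which tethers virions, and 0.11 for Ifitm3, which blocks viral entry. For Ifitm3 the groups did not overlap although the difference was small, since its 3 tumor-bearing arrays read 11.65, 11.70 and 11.75 and its tumor-free arrays 11.62, 11.59 and 11.56.

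The GTPases that act on the vacuoles of intracellular pathogens gave 0.88 for Gbp3, 0.97 for Iigp1 and 0.48 for Irgm1. Gbp3 read 6.82, 7.05 and 8.15 in tumor-bearing and 6.49, 6.28 and 6.61 in tumor-free osteoblasts, which did not overlap (SE 0.31, limma adjusted p = 0.383). Parp9 and its partner Dtx3l, a ubiquitin ligase, and the related ADP-ribosyltransferase Parp14 had differences of 0.03, 0.55 and 0.23.

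**Figure D3:**
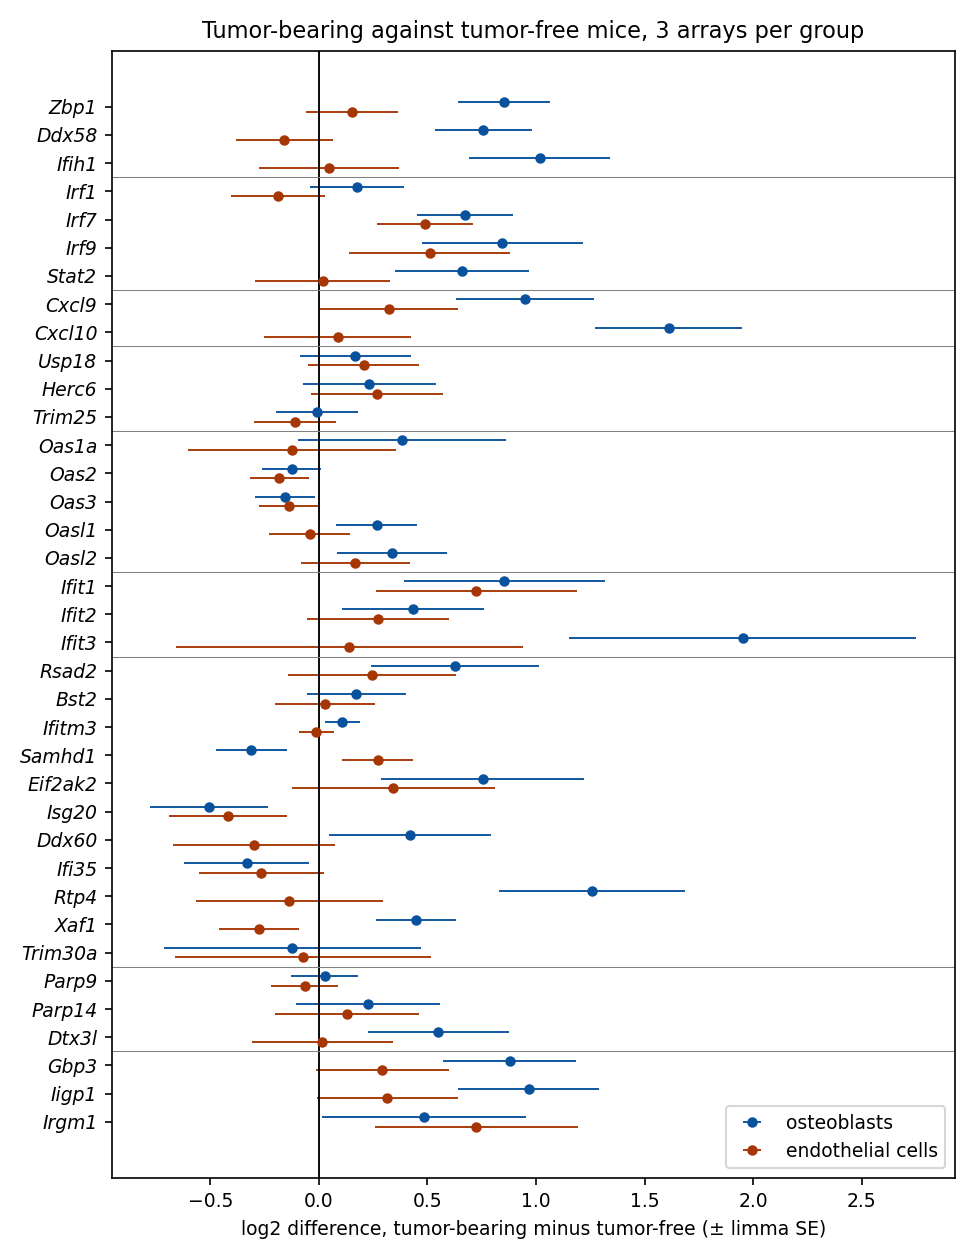
Log2 difference, tumor-bearing minus tumor-free, of each tested gene in osteoblasts (blue) and endothelial cells (red), 3 arrays per group, with the limma SE as bars and roles separated by lines. In osteoblasts 30 of 37 points lie right of 0, Ifit3 (1.95) and Cxcl10 (1.61) farthest, and in endothelial cells all points lie between -0.42 and 0.73.

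Replicate 3 of the tumor-bearing osteoblasts stood apart from replicates 1 and 2 in most of these genes. It was the highest array of its group in 32 of 37 genes (86.5%), against 36.2% of all genes tested, and the highest of the 6 osteoblast arrays in 26. It exceeded the mean of the other tumor-bearing arrays by a median of 0.68 over the 37 genes, against -0.0028 over all genes. The excess was over 0.5 in 23 of the 37 (62.2%) against 11.2% of all genes. Oas1a showed it most, with 8.01 in replicate 3 against 5.94 and 6.01 in the other tumor-bearing arrays and 6.34, 5.90 and 6.58 in tumor-free osteoblasts. Ifit1 read 7.78 there against 6.08 and 5.99, Trim30a 8.96 against 7.25 and 7.81, and Parp14 7.56 against 6.19 and 6.36. In Oas1a and Parp14 the other tumor-bearing arrays lay within or just below the tumor-free range. The median SD over the 37 genes was 0.47 in tumor-bearing osteoblasts and 0.27, 0.23 and 0.22 in tumor-free osteoblasts and in tumor-bearing and tumor-free endothelial cells, where the median over all genes tested was 0.18, 0.21, 0.18 and 0.16.

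**Figure D4:**
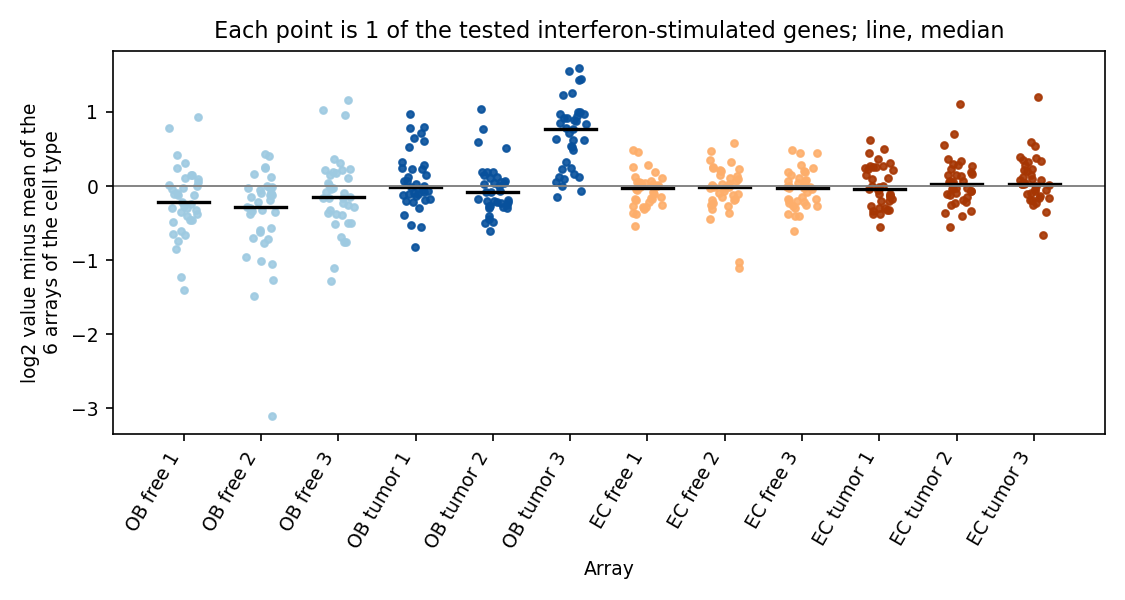
Log2 value of each tested interferon-stimulated gene in an array minus the mean of that gene over the 6 arrays of the cell type. Points are genes, spread sideways at random to separate them, and black lines are medians over 37 genes. The median of replicate 3 of the tumor-bearing osteoblasts is 0.76, and those of the other osteoblast arrays lie between -0.28 and -0.02.

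Ptprc and Krt8 were also highest in that array among the osteoblast arrays, while the sums of the pan-haematopoietic and macrophage lists were not. Ptprc, which encodes CD45 and should be low after the gate, read 7.28 in it and 5.10 to 6.31 in the other osteoblast arrays, and the median of 5 pan-haematopoietic markers was 7.16, against 6.88 in tumor-free replicate 3 and 5.18 to 5.91 in the others. The median of 6 monocyte and macrophage markers was 7.34 against 5.78 to 7.10 in the other osteoblast arrays. Their summed log2 values in tumor-bearing and tumor-free osteoblasts spanned 29.0 to 33.6 and 27.4 to 34.4 for the pan-haematopoietic list and 39.3 to 43.1 and 34.9 to 44.6 for the macrophage list. By these sums the array did not stand apart. Tumor-free replicate 3 had the highest sum of each list, 34.4 and 44.6, above this array's 33.6 and 43.1. Of the mammary epithelial markers, the keratin gene Krt8 read 10.13 against 6.79 to 7.54, while Epcam (5.35), Krt18 (5.77), Krt19 (4.43) and Cdh1 (5.34) lay within or below the range of the other osteoblast arrays. The neutrophil median was 7.05 in this array, the lowest of the 6, and 10.84 in tumor-free replicate 3, the highest. Markers of plasmacytoid dendritic cells and of T and NK cells had medians of 5.94 and 4.73 in this array, the lowest of the 6 osteoblast arrays. The part of these cells in the values of the listed genes was not tested.

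Without this array the osteoblast comparison kept fewer of its values. The median difference was 0.25, 24 of 37 genes were positive and 6 were higher at an unadjusted limma p under 0.05 (16.2%, against 5.58% of all genes). Without tumor-bearing replicate 2 the median was 0.66, and without replicate 3 of both osteoblast groups it was 0.12, with 25 positive and 7 higher at an unadjusted p under 0.05. Without tumor-free replicate 2 that last count was 7. The groups did not overlap in 9 genes that were higher without tumor-bearing replicate 3 (24.3%, against 11.1% of all genes), and these were Zbp1, Ddx58, Irf7, Irf9, Cxcl10, Ifit1, Ifitm3, Xaf1 and Gbp3. The difference of Cxcl10 was then 1.51, of Zbp1 0.61 and of Ddx58 0.53, while those of Oas1a, Usp18, Herc6, Oasl2, Bst2 and Parp14 turned negative, from -0.30 to -0.04.

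The same question in endothelial cells gave smaller values. Of the 37 genes, 22 had a positive difference, against 51.4% of all genes, with a median of 0.05 (all genes 0.01) and a range from -0.42 to 0.73. With limma, 0 passed, where 0.0141% of all genes did, and 0 had an unadjusted p under 0.05, where 2.62% of all genes were higher and 1.97% lower. The groups did not overlap in 3 genes that were higher (Irf7, Cxcl9 and Irgm1) and 1 that was lower (Isg20), against 5.63% and 4.87% of all genes.

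Irf7 had the smallest p there. It read 6.85, 6.91 and 6.84 in tumor-bearing and 6.63, 6.17 and 6.33 in tumor-free endothelial cells (0.49, SE 0.22, limma adjusted p = 0.9999). Its groups did not overlap in either cell type. Irgm1 read 8.24, 7.97 and 8.09 against 7.80, 6.64 and 7.70 (0.73, SE 0.47), and Ifit1 5.66, 7.10 and 6.33 against 5.64, 5.89 and 5.39 (0.73, SE 0.46). In Ifit1 the groups overlapped, and in Irgm1 they did not, with tumor-free replicate 2 the lowest array.

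Isg20 was lower in each tumor-bearing endothelial array, at 7.00, 6.85 and 6.85 against 7.22, 7.46 and 7.26 (-0.42, SE 0.27). Samhd1 read 10.12, 10.13 and 9.75 against 9.85, 9.86 and 9.48 (0.27, SE 0.16), and Xaf1 7.48, 7.70 and 7.27 against 8.11, 7.73 and 7.44 (-0.28, SE 0.18). The groups of Samhd1 and Xaf1 overlapped. The limma adjusted p of each of these 6 genes was 0.9999. The chemokine Cxcl9 read 10.13, 10.06 and 9.90 in tumor-bearing and 9.84, 9.56 and 9.71 in tumor-free endothelial cells, a difference of 0.32 with no overlap.

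Whether the tumor difference itself differed between the cell types was tested as the osteoblast difference minus the endothelial difference. This value was positive in 29 of 37 genes, against 47% of all genes, with a median of 0.31 (all genes -0.02). With limma, 0 passed, where 0.0281% of all genes did. At an unadjusted limma p under 0.05, 5 genes were higher and 1 lower, against 3.52% and 2.95% of all genes. Cxcl10 had the smallest p (1.52, 95% interval 0.46 to 2.58, limma adjusted p = 0.619), followed by Ddx58 (0.92), Xaf1 (0.72), Samhd1 (-0.58), Zbp1 (0.70) and Rtp4 (1.39), with limma adjusted p between 0.675 and 0.763. Samhd1 was the gene with the opposite sign, at 9.77, 9.55 and 10.07 in tumor-bearing and 10.04, 10.12 and 10.17 in tumor-free osteoblasts. Without osteoblast tumor-bearing replicate 3 the median was 0.07, with 21 positive and 3 higher at an unadjusted p under 0.05, and without replicate 3 of both osteoblast groups it was 0.16. The count of 5 was also 3 without endothelial tumor-bearing replicates 1 or 3 or endothelial tumor-free replicates 1 or 2.

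Osteoblasts were next compared with endothelial cells. Among tumor-free mice, 32 of the 37 genes were lower in osteoblasts by value and 5 higher, where 49.1% of all genes were higher, with a median difference, osteoblasts minus endothelial cells, of -0.61 (all genes -0.01). With limma, 12 were lower past the threshold and 0 higher, where 7% of all genes were lower and 5.38% higher (12.4% in either direction). At an unadjusted limma p under 0.05, 18 were lower and 2, Isg20 (0.88) and Samhd1 (0.38), higher, against 12.9% and 10.5% of all genes. The arrays did not overlap in 20 genes that were lower and 2 that were higher, against 15.8% and 13.6% of all genes. The tumor-free arrays are those used in the tumor comparisons, so these values share samples with them.

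The GTPase gene Iigp1 was 6.24-fold lower in tumor-free osteoblasts, at 7.84, 6.89 and 8.32 against 10.31, 10.12 and 10.55 (-2.64, SE 0.32, limma adjusted p = 0.000367). Parp14 was 5.91-fold lower, at 6.29, 6.24 and 6.90 against 9.16, 9.08 and 8.88 (-2.56, SE 0.33, limma adjusted p = 0.000513). In both genes every tumor-free osteoblast array lay far below every endothelial array.

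Both chemokines and 2 of the 3 tested sensors were also lower. Cxcl9 was 4.95-fold lower (-2.31, SE 0.32, limma adjusted p = 0.000758), Cxcl10 3.45-fold lower (-1.79, SE 0.34, limma adjusted p = 0.00556) and Ddx58 3.02-fold lower (-1.59, SE 0.22, limma adjusted p = 0.000872), each without overlap of the tumor-free arrays. Their endothelial values were 9.84, 9.56 and 9.71 for Cxcl9, 9.87, 8.39 and 9.86 for Cxcl10 and 8.81, 8.51 and 8.53 for Ddx58. The sensor gene Ifih1 read 7.39, 7.60 and 7.12 against 8.48, 8.80 and 8.63 (-1.27, limma adjusted p = 0.0272), whereas the arrays of Zbp1 overlapped (-0.23, limma adjusted p = 0.599).

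The ubiquitin ligase gene Trim25 read 8.01, 7.60 and 8.11 in tumor-free osteoblasts and 9.23, 8.89 and 9.40 in tumor-free endothelial cells (-1.27, SE 0.19, limma adjusted p = 0.00133). Xaf1 read 7.07, 6.67 and 6.61 against 8.11, 7.73 and 7.44 (-0.98, SE 0.18, limma adjusted p = 0.00538). Rtp4 read 6.89, 6.05 and 7.77 against 8.76, 8.78 and 8.73 (-1.86, SE 0.43, limma adjusted p = 0.0169). The endothelial arrays of Rtp4 were nearly equal, whereas the osteoblast arrays spread widely.

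Ifitm3 differed little in size, at 11.62, 11.59 and 11.56 against 11.96, 11.96 and 11.94 (-0.36, SE 0.08, limma adjusted p = 0.0131), and its arrays were the most alike of the 12 genes. Parp9 read 6.60, 6.46 and 6.84 against 7.13, 7.21 and 7.40 (-0.61, SE 0.15, limma adjusted p = 0.0260). The mouse gene Trim30a, a restrainer of NF-kappaB signalling, read 6.67, 8.50 and 9.22 against 10.35, 10.63 and 10.06 (-2.22, SE 0.59, limma adjusted p = 0.0331), the widest osteoblast spread of the 12.

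The 12 genes did not all hold equally. Iigp1, Parp14, Cxcl9, Ddx58, Trim25, Xaf1 and Cxcl10 passed in each of 22 alternative settings, Ifitm3 in 21, Rtp4 in 19, Parp9 in 18, and Ifih1 and Trim30a in 16 each. Without endothelial tumor-free replicate 2, or without replicate 3 of the same group, 8 of the 12 passed, and in both cases Ifih1, Parp9, Rtp4 and Trim30a did not.

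By role, 2 of 3 sensors, 2 of 2 chemokines, 1 of 3 genes of the ISG15 system, 4 of 11 other effectors, 2 of 3 genes of the PARP9-DTX3L group and 1 of 3 GTPases were lower past the threshold. Of the 4 transcription factors, 5 oligoadenylate synthetase family genes and 3 IFIT genes, 0 passed with limma, and at an unadjusted p under 0.05 only Irf9 was lower (-0.85). The oligoadenylate synthetase family genes ranged from -0.37 (Oasl2) to 0.04 (Oas1a). Near copies exist within the OAS, IFIT, GBP and IRG families, and how far probe sets read such copies was not tested.

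**Figure D5:**
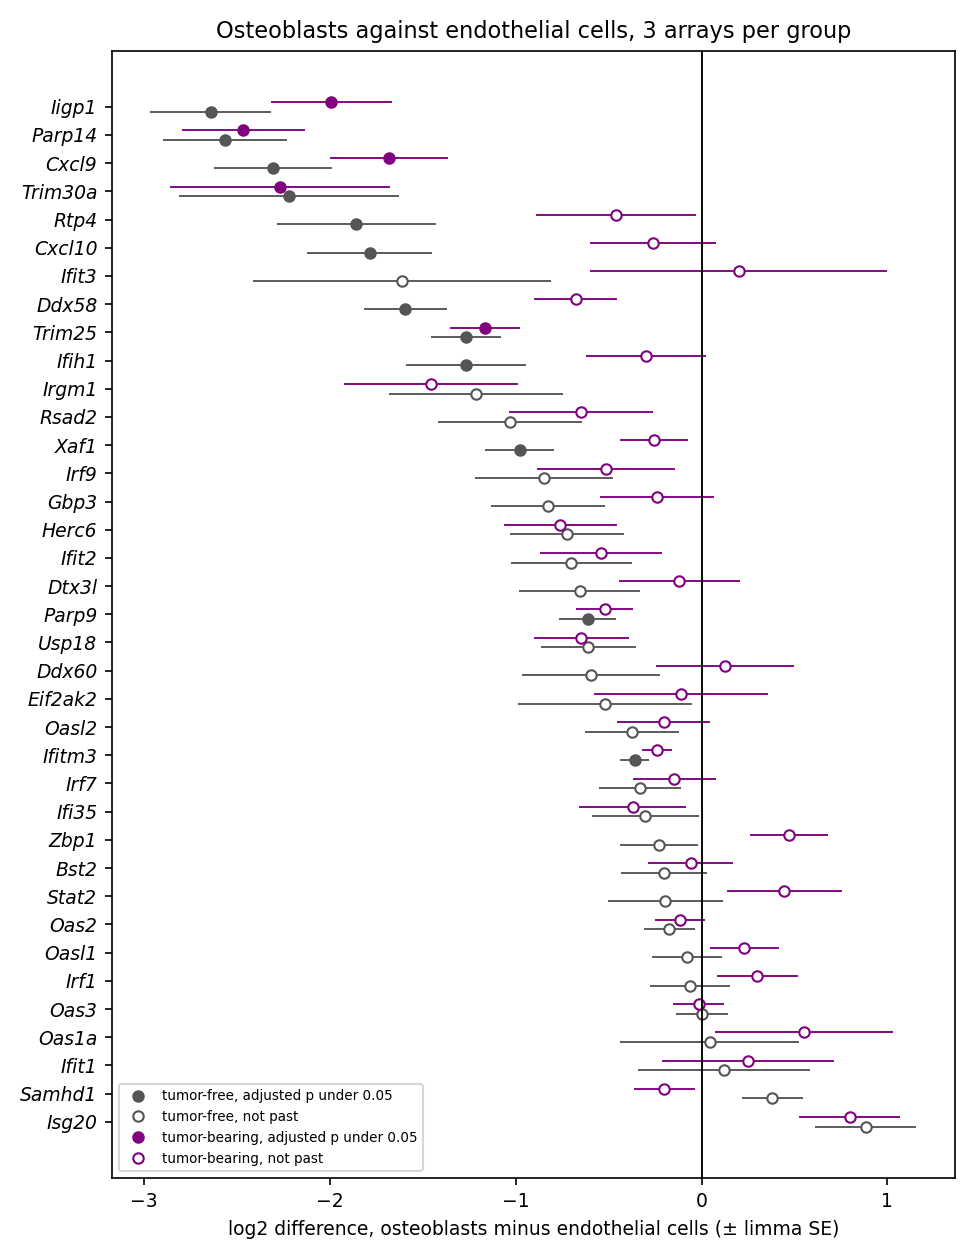
Log2 difference, osteoblasts minus endothelial cells, of each tested gene in tumor-free (gray) and tumor-bearing (purple) mice, 3 arrays per group, with the limma SE as bars, and filled points for a limma adjusted p under 0.05. Genes are ordered by the tumor-free value, from -2.64 (Iigp1) to 0.88 (Isg20). The tumor-bearing points of Cxcl10, Rtp4, Ifih1, Ifit3 and Ddx58 lie closer to 0 than their tumor-free points.

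In tumor-bearing mice, 28 of 37 genes were lower in osteoblasts by value and 9 higher, where 44.4% of all genes were higher, with a median of -0.24 (all genes -0.03). With limma, 5 were lower past the threshold and 0 higher, where 5.68% of all genes were lower and 4.89% higher (10.6% in either direction). At an unadjusted limma p under 0.05, 11 were lower and 2 higher, Zbp1 (0.47) and Isg20 (0.80), against 11.9% and 10.8% of all genes. The groups did not overlap in 9 genes that were lower and 2 that were higher, Irf1 and Isg20, against 16% and 12.1% of all genes. These shares are nearer to those of all genes than in tumor-free mice, and the test of that change is the difference of tumor effects given above, in which 0 genes passed. For Irf1, the probe set used had means of 8.46 in tumor-bearing osteoblasts and 8.16 in tumor-bearing endothelial cells. Its second probe set had nearly equal means, 7.83 and 7.82.

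The 5 genes were Parp14, Iigp1, Trim25, Cxcl9 and Trim30a. Parp14 was 5.52-fold lower, at 6.19, 6.36 and 7.56 in osteoblasts and 8.82, 9.45 and 9.25 in endothelial cells (SE 0.33, limma adjusted p = 0.000755). Iigp1 was 3.98-fold lower, at 8.70, 8.24 and 9.02 against 10.44, 10.63 and 10.86 (SE 0.32, limma adjusted p = 0.00261). In both genes the groups did not overlap, and osteoblast replicate 3 was the nearest to the endothelial arrays.

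Trim25 was 2.24-fold lower, at 7.85, 7.62 and 8.23 against 9.08, 9.05 and 9.06 (SE 0.19, limma adjusted p = 0.00261). Cxcl9 was 3.21-fold lower (-1.68, SE 0.32, limma adjusted p = 0.00614). Trim30a was 4.82-fold lower, at 7.25, 7.81 and 8.96 against 9.99, 10.25 and 10.59 (SE 0.59, limma adjusted p = 0.0339), and passed in 14 of 22 alternatives, with a highest adjusted p of 0.120. The other 4 passed in all 22.

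Without osteoblast tumor-bearing replicate 3, 9 genes were lower past the threshold in tumor-bearing mice, the 5 above with Ddx58, Herc6, Oasl2 and Usp18. Without replicate 3 of both osteoblast groups there were 11, with Irgm1 and Isg20 added, and Isg20 was higher in osteoblasts. Calls over all genes were not counted in these settings, so the rise is not shown to be particular to the listed genes. The median was -0.42 without osteoblast tumor-bearing replicate 3 and -0.09 without replicate 2, where 14 genes were positive in place of 9.

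Cxcl10 differed most between these 2 contrasts among the genes that passed in tumor-free mice. Its difference between the cell types was -1.79 in tumor-free and -0.26 (limma adjusted p = 0.732) in tumor-bearing mice, where the arrays of the cell types overlapped. Isg20 was higher in osteoblasts without overlap in both, at 7.49, 8.20 and 8.91 against 7.22, 7.46 and 7.26 in tumor-free and at 7.65, 7.65 and 7.79 against 7.00, 6.85 and 6.85 in tumor-bearing mice. It did not pass in either (limma adjusted p = 0.0621 and 0.0988).

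The listed genes varied together from array to array within groups, but this rested on replicate 3 of the tumor-bearing osteoblasts. After the group means were removed, the correlation of a gene with the mean of the other 36 over the 12 arrays was positive in 34 of 37 genes and above 0.5 in 21 (56.8%), with a median of 0.55. For all other genes tested, the correlation with the mean of the 37 was positive in 52.6% and above 0.5 in 12.5%, with a median of 0.03. Without that array, a setting added after the data were seen, 19 of the 37 genes were positive and 6 were above 0.5 (16.2%, against 16.1% of all other genes), with a median of 0.01 against 0.08. Oas1a, Oasl2 and Parp14 had the highest values over the 12 arrays (0.93, 0.87 and 0.87) and stood at 0.60, -0.07 and 0.50 over the other 11. Irf1, the least alike, stood at -0.41 and -0.49. These points share the arrays and their amplification.

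The genes that make and carry the signal were looked at as a list of 50 interferons, receptors, kinases, further interferon regulatory factors, inducing sensors and adaptors, and negative regulators, of which 33 were tested. In osteoblasts 17 of the 33 had a positive tumor difference (all genes 46.7%), with a median of 0.03, and in endothelial cells 18 (all genes 51.4%), with a median of 0.03. Both counts of positive genes include Ifnb1, which entered the tests only through tumor-bearing arrays, as described below. With limma, 0 passed in either comparison, where 0.0563% and 0.0141% of all genes did. At an unadjusted limma p under 0.05, 2 were higher and 2 lower in osteoblasts, against 5.8% and 3.97% of all genes, and 0 were higher and 1 lower in endothelial cells, against 2.62% and 1.97%, so that these counts lie near those of all genes.

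Of the 21 interferon genes listed, 8 passed the filter and are counted as tested, Ifnb1 among them, 7 were too dim and 6 had no probe set with exactly 1 symbol. Ifnb1, the gene of interferon beta, read 6.86, 4.86 and 6.01 in tumor-bearing and 5.01, 4.75 and 4.95 in tumor-free osteoblasts, and 4.84, 4.93 and 6.73 against 5.04, 4.81 and 5.15 in endothelial cells. In each cell type the groups overlapped, with 2 tumor-bearing osteoblast arrays and 1 tumor-bearing endothelial array above every tumor-free array. Those 3 arrays are the only ones above the 40th percentile, so that Ifnb1 entered the tests only through the groups where it is high, and its values are given without a test.

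The receptor genes carry the signal across the cell membrane. In osteoblasts the tumor differences of Ifnar1, Ifnar2, Ifngr1 and Ifngr2 lay between -0.16 (Ifnar1) and 0.12 (Ifngr2). In endothelial cells Ifngr2, a chain of the interferon gamma receptor, read 8.06, 7.75 and 8.14 in tumor-bearing and 8.70, 8.49 and 8.19 in tumor-free mice, without overlap (-0.48, limma adjusted p = 0.961), while Ifnar1 had 0.28, Socs3, an inhibitor of cytokine signalling, 0.47 and the adaptor Myd88 -0.61. Over the 33 genes the endothelial groups did not overlap in 1 that was higher and 2 that were lower, against 5.63% and 4.87% of all genes.

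Of the signalling kinases, Jak1 read 10.39, 10.56 and 10.38 in tumor-bearing and 10.08, 9.86 and 10.29 in tumor-free osteoblasts (0.37, limma adjusted p = 0.396), and Jak2, which acts at the interferon gamma receptor, 8.80, 9.52 and 8.95 against 8.16, 8.77 and 8.26 (0.69, limma adjusted p = 0.338). Neither overlapped. Irf3, a factor that switches on interferon beta, was below every tumor-free array, at 6.65, 6.99 and 6.93 against 7.23, 7.37 and 7.67 (-0.56, limma adjusted p = 0.267). Over the 33 genes the osteoblast groups did not overlap in 2 that were higher and 2 that were lower, against 6.18% and 8.36% of all genes. These counts lie near those of all genes. Tyk2 was too dim to be tested.

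Between the cell types, 5 of the 33 genes were lower in osteoblasts in tumor-free mice and 0 higher with limma, against 7% and 5.38% of all genes. They were Jak1 (-1.58), the RNA receptor gene Tlr3 (-1.51), Tmem173, which encodes the DNA sensing adaptor STING (-1.72), Irf8 (-1.20) and Jak2 (-1.25), with limma adjusted p from 2.11e-05 to 0.00280. In tumor-bearing mice 4 were lower and 0 higher, against 5.68% and 4.89% of all genes, namely Jak1 (-1.20), Tlr3 (-1.61), Irf8 (-1.06) and Tmem173 (-1.40), and Jak2 had -0.74 (limma adjusted p = 0.0506).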

How the data were processed

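The deposited values are log2 intensities of 34760 probe sets on 12 arrays, and the submitters' processing notes name the affy package. The summary method, the version and how probe sets were defined were not given in the sources used here. GEO's platform annotation gave 21640 probe sets 1 symbol, 1321 several and 11799 none, and 21553 of the first kind were matched in RefSeq by Entrez number. The brightest single-symbol probe set stood for each gene, and genes above their array's 40th percentile in at least 3 of 12 arrays were tested. limma 3.58.1 (R 4.3.3) fitted 1 mean per group over all 12 arrays, with Benjamini-Hochberg adjustment over 14217 genes and a threshold of 0.05, and was tested on simulated data. Fold values are ratios computed from the deposited log2 means. Per-array values are given for members past the threshold, up to 10 by p, or for the 6 smallest p in a comparison, and for further members singled out after their values were seen. The members and lists were chosen with earlier results of these data known. p-values rest on 3 arrays per group, and this number limits the precision. The alternatives were 10 other settings and each array left out in turn. Promoter windows are RefSeq's (GRCm38.p6).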

Additional observations from a re-analysis of the deposited data

Results flagged for a closer look

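A signal appeared in 3 listed genes that were too dim for the tests. Dhx58, which encodes the RNA sensor LGP2, read 6.30 in tumor-bearing osteoblast replicate 3, where the highest tumor-free osteoblast array read 5.40 and the array's own 40th percentile was 5.51. The highest Dhx58 value of the 12 arrays was 6.40, in tumor-free endothelial replicate 1, whose 40th percentile was 5.58. A high Dhx58 value was therefore not confined to tumor-bearing mice. Mx2, which encodes an antiviral GTPase, read 5.98 in the same array, against 5.13 in the highest tumor-free osteoblast array. Cmpk2, a nucleotide kinase gene, read 5.61 in tumor-bearing endothelial replicate 3, against 5.42 in the highest tumor-free endothelial array and a 40th percentile of 5.56. Each value comes from 1 array and has no test.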

How the results depend on the processing

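Each comparison was recomputed under 10 other settings and with each of the 12 arrays left out in turn. When arrays were left out, the number of members past the threshold ranged from 0 to 1 for the osteoblast tumor comparison, from 8 to 14 for the cell types in tumor-free mice and from 4 to 9 in tumor-bearing mice. It was 0 throughout for the endothelial comparison and for the difference of tumor effects. The single gene gained in osteoblasts was Cxcl10. Members higher at an unadjusted limma p under 0.05 ranged from 6 to 13 in osteoblasts and from 3 to 6 for the difference of tumor effects, and the latter count was 3 with quantile normalization. Members with a positive cell type difference numbered 3 to 6 in tumor-free and 5 to 14 in tumor-bearing mice, and 3 in tumor-free mice with a 60th percentile filter, under which fewer genes were tested. Without replicate 3 of both osteoblast groups, 7 members were higher in osteoblasts at an unadjusted p under 0.05, and in tumor-bearing mice 11 members passed, 17 were lower at an unadjusted p under 0.05 and 5 were positive. The number of all genes past the threshold was not counted in these settings. Whether the changes are particular to the members cannot be read from these counts. The causes were not tested.

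Same-numbered arrays of different groups did not deviate together (0 of 18 pairs with a correlation above 0.1, from -0.08 to 0.07). This cannot show whether arrays came from the same mice, which the labels do not say. With the replicate number as a block, the counts past the threshold were 0 for both tumor comparisons and their difference, 11 in tumor-free and 6 in tumor-bearing mice, and the median osteoblast tumor difference was 0.43. Of 1092 values of the genes named by the rule, which takes at most 10 called genes per comparison, 1075 kept their side of the threshold, 16 no longer passed, 1 newly passed and 0 changed sign where called. The 1092 include the tumor comparisons and their difference, whose named genes had no call to lose. The 1075 therefore do not measure how firmly the calls held. The tumor-free calls of Ifih1 and Trim30a lie outside that tally and were each lost in 6 of 22 settings. The median within-group correlation of the members fell from 0.55 to 0.01 without tumor-bearing osteoblast replicate 3, which was chosen after seeing the data. With 3 arrays per group and a spread shared over the 4 groups, the osteoblast tumor difference of Cxcl10 did not pass in the main fit, and the dim members have no test.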
